A study of Mus musculus with 2 samples.

Results

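The 10 genes described here encode proteins of the elastic fibre and its microfibril sheath: Eln, Fbn1, Fbn2, Fbln1, Fbln2, Fbln5, Mfap2, Mfap4, Mfap5 and Emilin1. They were taken by gene symbol from the 32285 genes of a single-cell count table, and all 10 were found. The table holds dorsal skin cells from wild-type male mice in 2 libraries, 1 from mice aged 9 weeks and 1 from mice aged 108 weeks, with 2 mice pooled in each and no other treatment than digestion and sorting for F4/80 and high MHC class II. The labels do not say which barcode suffix belongs to which age, so the libraries are called suffix 1 and suffix 2 and no age comparison was made. With 1 library per age there is no replicate of either age, and no test between cells stands in for one. All intervals below are exact 95% intervals that cover counting error only. Levels are in CPM, UMIs of a gene per 1000000 UMIs of a cell class. The libraries count the 3′ end of each molecule, so a level was not divided by gene length, and levels are compared between cell classes for each gene rather than between genes.

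Elastic fibres give skin and vessel walls their recoil. Fibrillins polymerise into microfibrils, and small microfibril-associated glycoproteins decorate them. Tropoelastin, the soluble product of Eln, is deposited on this scaffold with the help of fibulins and is then crosslinked by lysyl oxidases. In skin, dermal fibroblasts are the best known source of these proteins, while smooth muscle cells make them in arteries.

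Of 5257 barcodes, 3797 were kept as cells, having 500 or more genes, 1000 or more UMIs and no more than 10% of UMIs from mitochondrial genes. Their median depth was 10870 UMIs. Although the gate was for macrophages, 46.3% of the cells kept were not macrophage or dendritic cells, and those are the cells the elastic fibre genes come from. Clusters made without the 10 genes were named from marker lists. They gave 826 fibroblasts (318 from suffix 1 and 508 from suffix 2), 79 mural cells, 316 endothelial cells, 126 Schwann cells, 77 keratinocytes, 142 skeletal muscle cells and 2040 macrophage and dendritic cells. The remaining cells were 34 T and NK cells, 32 mast cells and 125 vascular cells with markers of more than 1 class, which entered no class. Each class was highest in its own markers. The 9 fibroblast markers summed to 83714 CPM in fibroblasts, 660.5 in mural cells, 158 in endothelial cells and 4820.1 in Schwann cells. In the 6 classes from fibroblasts to skeletal muscle cells, the 14 macrophage and dendritic markers summed to between 241 CPM in mural cells and 2530.1 CPM in Schwann cells, against 51329 CPM in the macrophage and dendritic class itself. The sums were 5731 CPM in T and NK cells, 7321 CPM in mast cells and 9795 CPM in the cells with markers of more than 1 class. Schwann cells were not screened for such mixing. In 22 of them fibroblast markers summed to 12919 CPM, against 14497.5 CPM of Schwann markers. In sub-clusters of 9 and 3, macrophage and dendritic markers summed to 7976 and 29952 CPM. Their Schwann markers summed to 4575 and 18524 CPM. Of the mural cells, 46 were pericyte-like and had nearly as much of the endothelial markers as of their own. Their mean log2 excess over the median of the 26 clusters of all cells was 5.59 for pericyte markers and 4.79 for endothelial markers. These values were closer than in some of the vascular cells left out. The pericyte-like cells were kept because no other vascular sub-cluster was higher in pericyte markers. Mural results for the 10 genes are therefore also given for the other 33 mural cells, the smooth muscle-like cells, alone. Mural levels of related genes are over all 79. Fibroblasts, mural, endothelial, Schwann, epidermal and muscle cells are not known to carry F4/80 or high MHC class II, and how they passed the gate was not tested.

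Fibroblasts held most of the UMIs of 9 of the 10 genes, from 64.2% of those of Emilin1 to 98.0% of those of Mfap4. Fbln5 was the exception, with 49.0% in fibroblasts and 29.2% in endothelial cells. In macrophage and dendritic cells, 2040 of the 3797 cells kept, each of the 10 genes was at 3.18 CPM or less. The heat map of the 10 genes by cell class shows the high block in fibroblasts, with Fbln2 and Fbln5 extending into endothelial and mural cells and Mfap5 into Schwann cells.

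**Figure D1:**
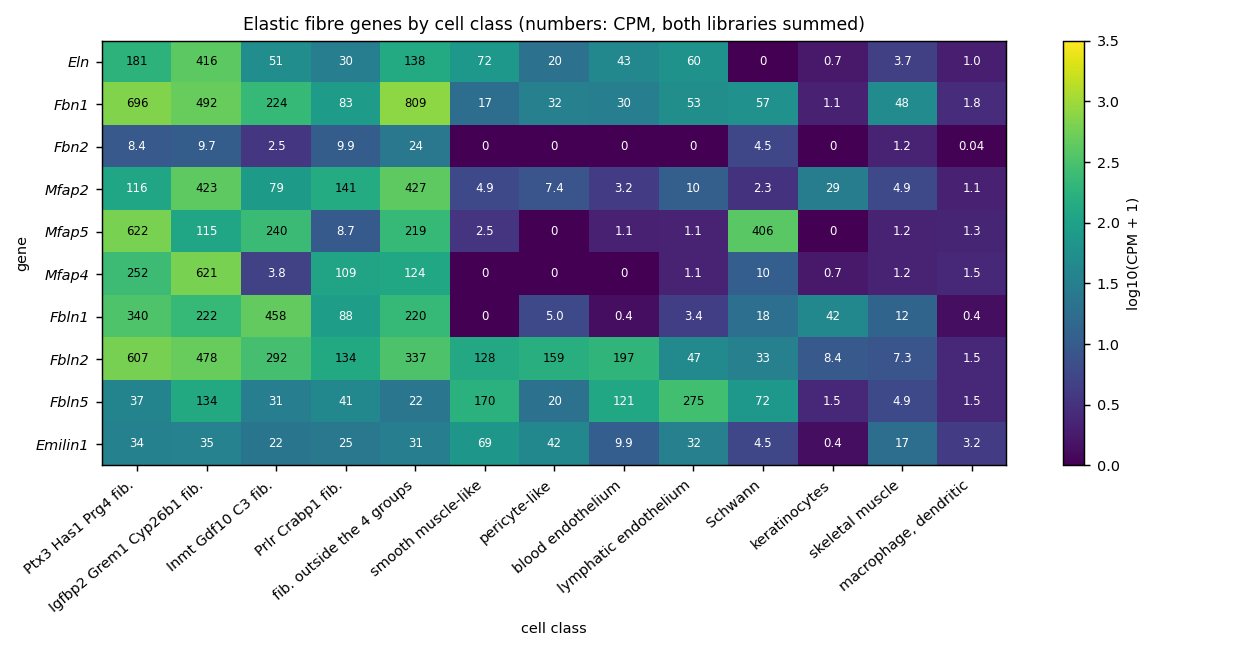
Level of each elastic fibre gene (rows) in each cell class (columns), both libraries summed. Colour is log10(CPM + 1) and the number in a cell is the CPM. Fibroblast columns are the brightest for most genes, Mfap5 is also bright in Schwann cells at 406 CPM, and among the classes drawn Fbln5 is brightest in lymphatic endothelium at 275 CPM. The Schwann column includes 22 cells that also carried fibroblast markers.

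Eln (ENSMUSG00000029675, chr5:134702593-134747323 on the minus strand, GRCm38) encodes tropoelastin, the elastic core of the fibre. It stood at 219 CPM (211 to 227) in fibroblasts, with 261 and 170.1 CPM in suffix 1 and suffix 2. Mural cells at 45.8 CPM (32.2 to 63.1) and endothelial cells at 46.6 CPM (39.9 to 54.2) were next and could not be told apart from each other. The fibroblast level was 4.78 times the mural and 4.69 times the endothelial level. No Eln UMI was found in the 126 Schwann cells, which allows up to 3.38 CPM, so fibroblasts were at least 64.7-fold higher. Keratinocytes were at 0.733 CPM and skeletal muscle cells at 3.67 CPM. The order of fibroblasts above the vascular classes held in both libraries.

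Fbn1 (ENSMUSG00000027204, chr2:125300594-125507993, minus strand) encodes fibrillin-1, the main microfibril protein of adult tissue. Its level was 455 CPM (444 to 467) in fibroblasts, with 477 and 429 CPM in the 2 libraries. Schwann cells followed at 57.5 CPM (42.8 to 75.6), skeletal muscle cells at 47.7 CPM (33.9 to 65.2), endothelial cells at 35.5 CPM (29.7 to 42.1) and mural cells at 24.7 CPM (15.1 to 38.2). Neighbours in that order overlapped in their intervals, while fibroblasts stood apart from all of them by 7.92-fold or more over both libraries. Of the 51 Schwann UMIs of Fbn1, 42 came from suffix 1, where the level was 93.1 CPM, against 20.6 CPM in suffix 2. Within suffix 2 the Schwann level was thus below the 45.0 CPM of skeletal muscle and the 33.3 CPM of endothelial cells, and the log2 ratios of fibroblasts over Schwann cells were 2.36 and 4.38 in suffix 1 and suffix 2. Fbn2 (ENSMUSG00000024598) encodes fibrillin-2, the fibrillin of developing tissue. It was low in every class, at 11 CPM (9.29 to 12.9) in fibroblasts, with 12.9 and 8.79 CPM by library. It had 4 UMIs in Schwann cells, all from suffix 1, and none in mural cells, endothelial cells or keratinocytes, where 3 counts would be 3.71, 0.813 and 1.10 CPM. With 148 UMIs in all fibroblasts, Fbn2 passed the level filter in few of the comparisons below.

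Mfap2 (ENSMUSG00000060572, chr4:141010418-141015984, plus strand) and Mfap5 (ENSMUSG00000030116, chr6:122505845-122529290, plus strand) encode the microfibril-associated glycoproteins MAGP-1 and MAGP-2, which bind fibrillin. The pair differed in where it was found outside fibroblasts. Mfap2 was at 276 CPM (267 to 285) in fibroblasts, 29.0 CPM (22.9 to 36.1) in keratinocytes, 6.18 CPM (2.01 to 14.4) in mural cells, 4.88 CPM (2.89 to 7.71) in endothelial cells and 2.25 CPM (0.273 to 8.14) in Schwann cells. Mfap5 was at 204 CPM (196 to 212) in fibroblasts and at 406 CPM (365 to 449.9) in Schwann cells, with 1 UMI in mural cells, 4 in endothelial cells and none in keratinocytes. The Schwann level includes 22 cells that also carried fibroblast markers and were higher in Mfap5 than the class as a whole. Levels by Schwann sub-cluster are given below. By library, Mfap5 stood at 155 and 260.4 CPM in fibroblasts and at 512 and 296 CPM in Schwann cells. The Schwann level was the higher beyond counting error in suffix 1, while in suffix 2 the interval of the log2 ratio of fibroblasts over Schwann cells, -0.44 to 0.086, included 0. Mfap4 (ENSMUSG00000042436, chr11:61485431-61488900, plus strand) encodes a fibrinogen-domain glycoprotein that binds microfibrils and tropoelastin. Of the 10 genes it was the most restricted to fibroblasts, at 324 CPM (314 to 334) there, with 354 and 289 CPM by library. It had no UMI in mural cells, 1 in endothelial cells and 9 in Schwann cells, all 9 from suffix 1. Fibroblasts were at least 87.3-fold higher in Mfap4 than mural cells.

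The 3 fibulins, secreted glycoproteins with calcium-binding EGF-like repeats, each had their own distribution. Fbln1 (ENSMUSG00000006369, chr15:85205949-85286535, plus strand), found in elastin cores and basement membranes, was at 224 CPM (216 to 232) in fibroblasts and 42.2 CPM (34.8 to 50.6) in keratinocytes, with 2.47 CPM in mural and 1.08 CPM in endothelial cells. Fbln2 (ENSMUSG00000064080, chr6:91212455-91272540, plus strand), which binds basement membrane proteins and tropoelastin, was at 387 CPM (377 to 398) in fibroblasts, 161 CPM (149 to 175) in endothelial cells and 143 CPM (119 to 172) in mural cells. The last pair overlapped. Fbln5 (ENSMUSG00000021186, chr12:101746565-101819055, minus strand), which brings tropoelastin onto microfibrils, was highest in endothelial cells among the main classes, at 158 CPM (145 to 171), then mural cells at 95.2 CPM (75.2 to 119), fibroblasts at 72.4 CPM (67.9 to 77.0) and Schwann cells at 72.1 CPM (55.5 to 92.1). Endothelial Fbln5 was the higher in both libraries, at 155 and 159.6 CPM against 57.0 and 90.0 CPM in fibroblasts. The log2 ratio of fibroblasts over mural cells in Fbln5 was -0.77 and -0.042 within suffix 1 and suffix 2, and the suffix 2 interval, -0.55 to 0.51, included 0. The 77 mural UMIs came from 11 of the 79 mural cells, and 69 of them from smooth muscle-like cells. Against smooth muscle-like cells alone the ratio was -1.24, while it turned to 0.45 with a looser filter on cells, 0.52 as a mean over cells and 0.50 without the cells that held 5 or more macrophage marker UMIs. No order of mural cells and fibroblasts is read from these values. Fibroblasts and Schwann cells overlapped.

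The sequence just upstream of each fibulin's start is shown because these paralogues differed in their levels outside fibroblasts. Whether the sequences bear on those levels was not tested. RefSeq's promoter table (GRCm38.p6) matched 6 of the 10 genes and held no entry for Eln, Fbn2, Mfap4 and Mfap5. The 250 bases before the first listed start run 5′ to 3′ on the gene's strand, with motif matches on either strand in capitals. The motifs searched were the TATA box, spelled TATAAA, the GC box, spelled GGGCGG, and the motif CCAAT. None of them overlaps another in these windows. They lie at chr15:85205699-85205948 (plus strand) for Fbln1, chr6:91212514-91212763 (plus strand) for Fbln2 and chr12:101819120-101819369 (minus strand) for Fbln5. The RefSeq start of Fbln2 lies inside the gene's GENCODE bounds given above, so its window overlaps them.
Fbln1: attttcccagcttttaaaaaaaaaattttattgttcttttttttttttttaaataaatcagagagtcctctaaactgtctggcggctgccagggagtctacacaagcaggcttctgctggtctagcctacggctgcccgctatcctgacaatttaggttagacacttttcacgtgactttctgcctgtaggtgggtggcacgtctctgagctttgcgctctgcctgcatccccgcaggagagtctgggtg
Fbln2: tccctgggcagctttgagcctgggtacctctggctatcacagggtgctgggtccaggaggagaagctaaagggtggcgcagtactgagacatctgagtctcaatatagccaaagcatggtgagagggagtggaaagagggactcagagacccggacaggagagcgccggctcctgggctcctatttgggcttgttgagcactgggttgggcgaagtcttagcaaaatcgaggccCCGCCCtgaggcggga
Fbln5: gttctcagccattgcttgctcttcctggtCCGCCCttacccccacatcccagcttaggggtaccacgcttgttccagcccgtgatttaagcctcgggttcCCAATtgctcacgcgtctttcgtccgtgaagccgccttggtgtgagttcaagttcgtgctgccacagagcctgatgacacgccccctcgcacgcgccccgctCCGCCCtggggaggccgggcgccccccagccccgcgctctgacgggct
The windows differed in base composition, with 46.4% G and C and 7 CpG dinucleotides for Fbln1, 58.8% and 8 for Fbln2, and 65.2% and 21 for Fbln5, against medians of 52.4% and 6 over 32851 promoters. Fbln1 held none of the 3 motifs in this window, Fbln2 held 1 GC box, and Fbln5 held 2 GC boxes and 1 CCAAT. Of all promoters of this length, 32.7% held a GC box, 33.8% a CCAAT and 12.4% a TATA box, so none of these matches is rare. A match is a run of letters and not a measured binding site.

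Emilin1 (ENSMUSG00000029163, chr5:30913402-30921277, plus strand) encodes a glycoprotein of the interface between elastin and microfibrils. It was highest in mural cells at 55.7 CPM (40.6 to 74.5), then fibroblasts at 30.8 CPM (27.9 to 33.9), skeletal muscle cells at 17.1 CPM (9.36 to 28.7) and endothelial cells at 15.2 CPM (11.5 to 19.7). By library, mural cells were at 68.5 and 39.3 CPM and fibroblasts at 28.7 and 33.1 CPM, so the mural level was the higher beyond counting error in suffix 1. In suffix 2, with 14 mural UMIs, the log2 ratio of fibroblasts over mural cells was -0.25 (-1.03 to 0.65), and the classes were not told apart.

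**Figure D2:**
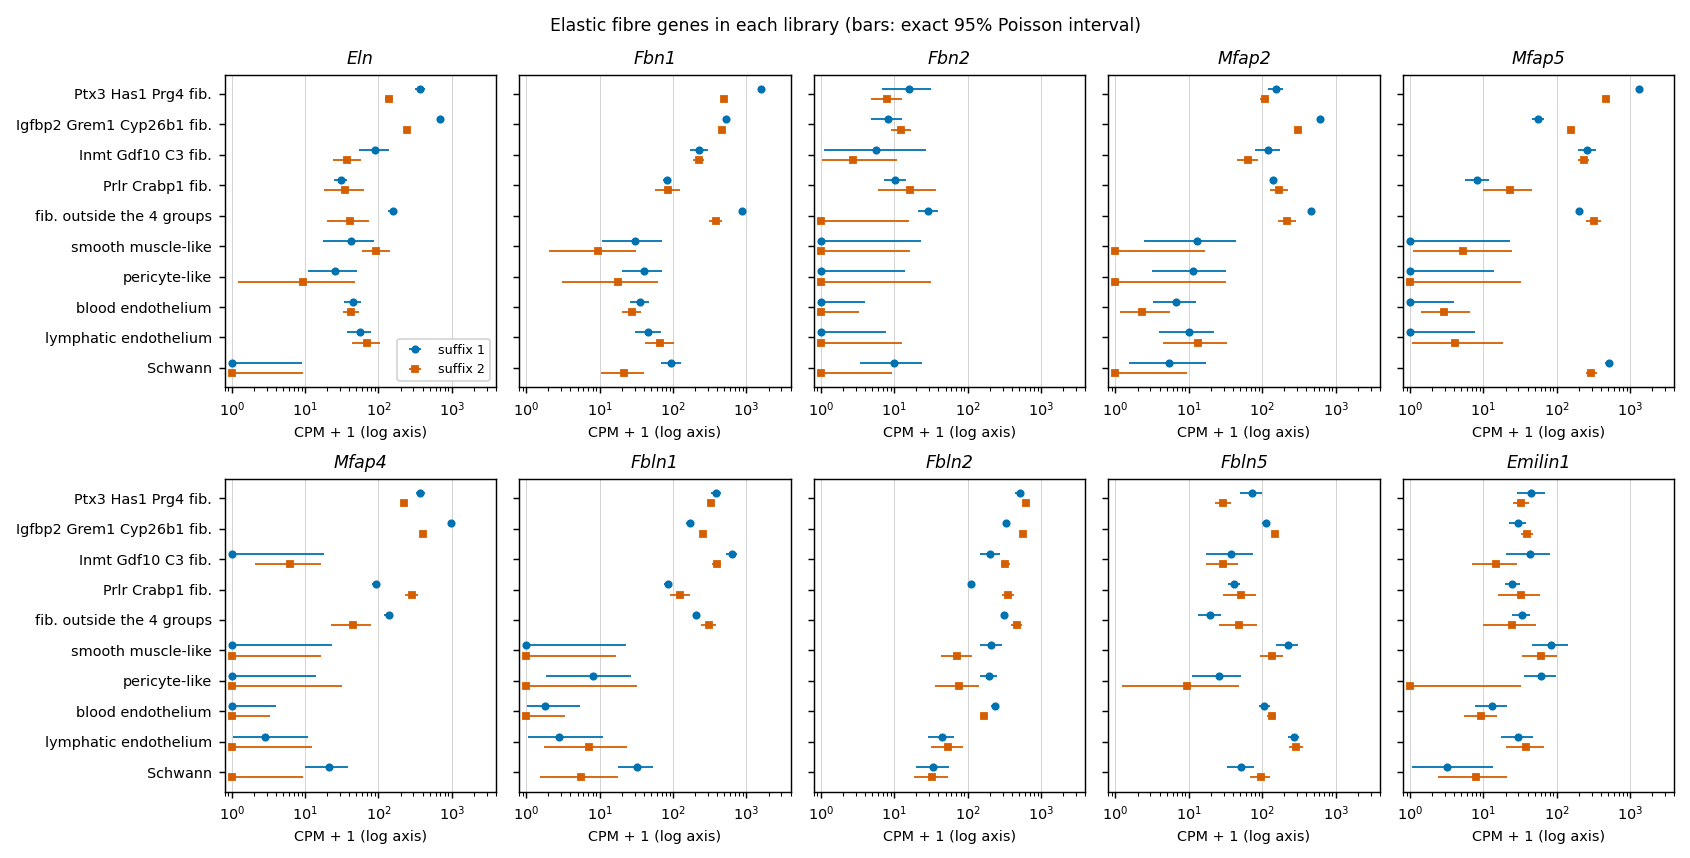
Level of each elastic fibre gene in the library with suffix 1 (blue circles) and with suffix 2 (orange squares), for the fibroblast groups, vascular classes and Schwann cells. The horizontal axis is CPM + 1 on a log scale and bars are exact 95% Poisson intervals. Eln, Mfap4 and Mfap2 in the Igfbp2 Grem1 Cyp26b1 fibroblasts and Mfap5 in the Ptx3 Has1 Prg4 fibroblasts sit higher in suffix 1.

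Counted over the 9 genes that averaged at least 10 CPM in the classes compared, 7 were 2-fold or more higher in fibroblasts than in mural cells, where 14.4% of 8142 genes were. None was 2-fold or more lower (background 18.9%). The 9 had a median log2 ratio of 4.20, against -0.12 over all genes tested. The other 2, Fbln5 and Emilin1, had log2 ratios of -0.40 (-0.73 to -0.042) and -0.86 (-1.30 to -0.38). Against the 33 smooth muscle-like cells alone these were -1.24 and -1.17, so that 2 genes were lower and the 7 higher stayed 7. Within suffix 1 alone 1 gene was lower, Emilin1 at -1.25. Fbln2 was counted at 1.43 (1.17 to 1.71), but its log2 ratios within suffix 1 and suffix 2 were 0.30 and 2.91, so without suffix 2 it fell short of 2-fold.

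Against endothelial cells, 8 of 9 genes were 2-fold or more higher in fibroblasts (background 15.4%) and 1, Fbln5, was 2-fold or more lower (background 16.4%). The median log2 ratio was 3.68, against -0.098 over all genes. Fbln1, Mfap4 and Mfap5 were nearly absent from endothelium, with at most 4 UMIs each in 316 cells. The smallest counted ratios were those of Emilin1, 1.02 (0.61 to 1.45), and Fbln2, 1.26 (1.14 to 1.39). Within suffix 1 alone neither reached 2-fold, at 0.74 and 1.32 for Emilin1 and 0.47 and 1.91 for Fbln2 in suffix 1 and suffix 2. Fbln5 was lower in fibroblasts at -1.12 (-1.27 to -0.97), and at -1.45 and -0.83 within the libraries. It fell short of 2-fold within suffix 2, with a stricter filter on cells (-0.75), without the cells that held 5 or more macrophage marker UMIs (-0.71) and with classes from marker scores per cell (-0.96), and kept its direction in each.

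Against Schwann cells, 7 of 9 genes were 2-fold or more higher in fibroblasts (background 12.5%) and none lower (background 21.7%), with a median log2 ratio of 3.57, against -0.25 over all genes. Fbln5 was level, at 0.0045 (-0.36 to 0.39). Mfap5 was lower in fibroblasts, at -0.99 (-1.15 to -0.83), just short of 2-fold, with -1.72 and -0.18 within suffix 1 and suffix 2, so that within suffix 1 it was counted as lower. With a looser filter on cells it was also counted, at -1.05. Its direction turned under a stricter filter on cells, which left 36 Schwann cells, where the log2 ratio was 0.39, and it was -0.05 as a mean over cells. The Schwann sum includes the 22 cells that also carried fibroblast markers, and their part in these ratios was not tested. Against keratinocytes (background 19.6%) and against macrophage and dendritic cells (background 22.5%), all 9 genes that passed the filter were 2-fold or more higher in fibroblasts. None was lower (backgrounds 17% and 17.7%). The smallest of these ratios were those of Fbln1 over keratinocytes, 2.41 (2.14 to 2.69), and of Emilin1 over macrophage and dendritic cells, 3.27 (2.93 to 3.64).

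After each cell was thinned to 2000 UMIs, which left out 47 of 826 fibroblasts, Fbln2 was seen in 52.0% of fibroblasts, Fbn1 in 50.4%, Fbln1 in 35.4% and Mfap2 in 34.8%. Without thinning these shares were 85.7%, 81.4%, 75.1% and 71.9%. In macrophage and dendritic cells, taken as the background of free RNA, the thinned share was 0.761% for Emilin1 and lower for the other 9 genes. Per 1000 UMIs of Col1a1, a collagen I chain, these cells had 26.96 Emilin1 and 12.65 Fbln5 UMIs. Fibroblasts had 1.02 and 2.4. Eln, Fbn1 and Fbln2 were close, at 8.32, 14.98 and 12.32 against 7.27, 15.11 and 12.86 in fibroblasts. Whether the Emilin1 and Fbln5 of macrophage and dendritic cells are free RNA was not tested. Fbln5 was seen in 52.9% (38.5% to 67.1%) of lymphatic endothelial cells, 12.6% (8.63% to 17.4%) of blood endothelial cells and 12.2% (9.98% to 14.7%) of fibroblasts. In mural cells the Fbln5 share was 4.41% (0.919% to 12.4%), below that of fibroblasts although the CPM was above, and the Emilin1 shares were 5.88% (1.63% to 14.4%) in mural cells and 7.06% (5.36% to 9.09%) in fibroblasts. Mfap5 was seen in 33.9% (25.2% to 43.5%) of Schwann cells and 30% (26.8% to 33.4%) of fibroblasts. These Schwann cell and fibroblast shares overlapped.

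Within the fibroblasts, 4 groups were named from the genes that mark them: 219 Ptx3 Has1 Prg4 fibroblasts, 295 Igfbp2 Grem1 Cyp26b1 fibroblasts, 113 Inmt Gdf10 C3 fibroblasts and 104 Prlr Crabp1 fibroblasts. Another 95 fell outside them, 86 led by Cthrc1, Col3a1 and Postn and 9 that also carried macrophage genes. The groups are not evenly shared by the libraries. Suffix 2 gave 179 of the 219 Ptx3 Has1 Prg4 and 89 of the 113 Inmt Gdf10 C3 fibroblasts, and suffix 1 gave 75 of the 104 Prlr Crabp1 fibroblasts and 72 of the 86 Cthrc1-led cells. Ratios are therefore also given within each library where a result turns on them. Each ratio is over the UMI sum of the remaining fibroblasts, so it also depends on which cells make up that sum. Of 13461860 fibroblast UMIs, 3333644 were from the 104 Prlr Crabp1 cells. The part of this in the ratios and in their differences between libraries was not tested. Between the lowest and the highest of 7 fibroblast sub-clusters, leaving out the 9 cells with macrophage genes, Mfap5 varied 158-fold, Fbn1 19.7-fold and Eln 15.7-fold, while Fbln2 varied 5.04-fold and Fbln1 5.51-fold. Mfap4 varied at least 86.7-fold, since 1 sub-cluster had no UMI of it.

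**Figure D3:**
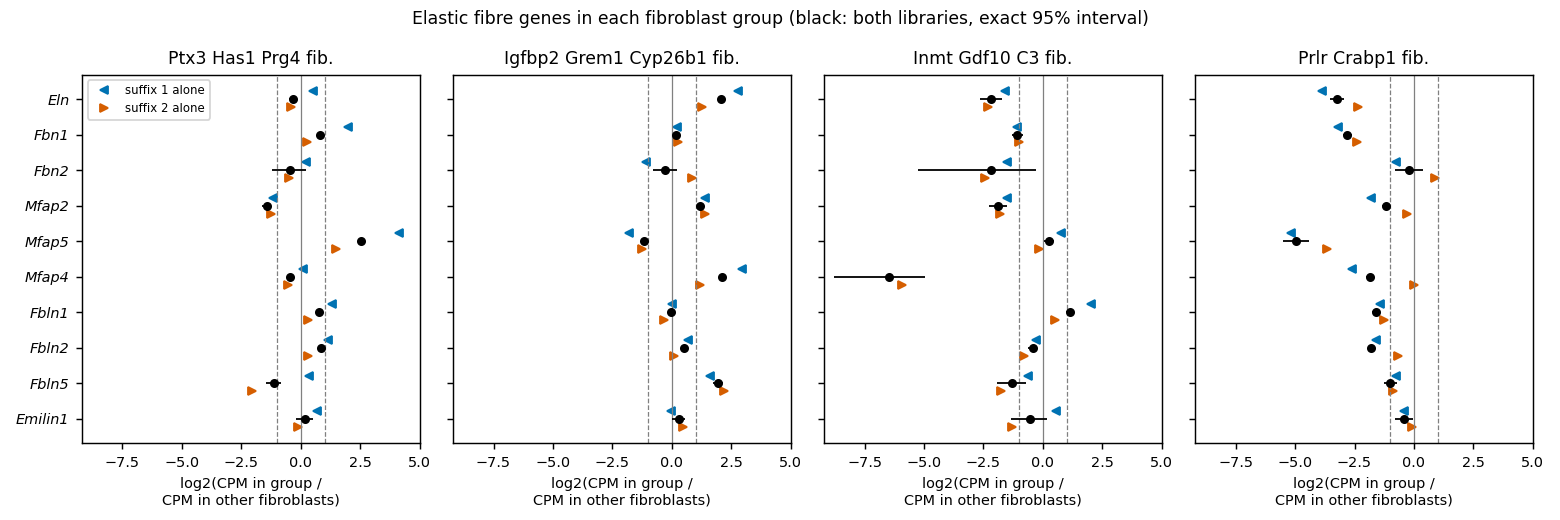
Log2 ratio of each elastic fibre gene in a fibroblast group over the rest of the fibroblasts. Black points are both libraries with the exact 95% interval, blue and orange triangles are suffix 1 and suffix 2 alone, and dashed lines mark 2-fold. Mfap4 had no UMI in the suffix 1 cells of the Inmt Gdf10 C3 group and has no triangle there. Mfap5 lies to the right in the Ptx3 Has1 Prg4 group, Eln, Mfap2, Mfap4 and Fbln5 lie to the right in the Igfbp2 Grem1 Cyp26b1 group, Mfap4 lies far to the left in the Inmt Gdf10 C3 group, and most genes lie to the left in the Prlr Crabp1 group.

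In the Igfbp2 Grem1 Cyp26b1 fibroblasts, 4 of 10 genes were 2-fold or more higher than in the rest of the fibroblasts (background 4.22%). They were Eln, Mfap4, Fbln5 and Mfap2, the elastin core with 3 of its binding partners. Mfap5 was 2-fold or more lower (background 8.8%). Eln stood at 416 CPM (399 to 435), with 692 and 241 CPM in suffix 1 and suffix 2, a log2 ratio of 2.06 (1.94 to 2.18). Mfap4 stood at 621 CPM (599.7 to 643), with 962 and 404 CPM by library, a log2 ratio of 2.1 (2.01 to 2.20). Both were counted in each library, but at ratios that differed, 2.80 and 1.25 for Eln and 2.94 and 1.20 for Mfap4. Fbln5 at 134 CPM was the highest of any fibroblast group and reached the level of blood endothelium, 121 CPM, its log2 ratio being 1.94 (1.74 to 2.14), or 1.60 and 2.21 by library. Mfap2 had 1.17 (1.07 to 1.26), with 1.39 and 1.41 by library, and Mfap5 -1.16 (-1.29 to -1.03), with -1.82 and -1.24. The median over the 10 genes was 0.40, against -0.19 over all genes. At a finer division of the fibroblasts the Mfap2 ratio fell to 0.30 and the Mfap5 ratio to -0.65, and both calls were lost. The Mfap2 call was also lost with a stricter filter on cells (0.976) and with classes from marker scores per cell (0.73). These cells also held most Col1a1 UMIs of the fibroblasts: Col1a1, a collagen I chain, was at 49775 CPM against 30105 CPM in fibroblasts as a whole. For each 1000 Col1a1 UMIs they had 8.37 Eln UMIs, against 7.27 in all fibroblasts. These cells gave most of both genes in that whole. Eln per 1000 Col1a1 was 56.1 in the Ptx3 Has1 Prg4, 10.5 in the Inmt Gdf10 C3 and 33.7 in the Prlr Crabp1 group. It was 1.77 in the fibroblasts outside the 4 groups. High Eln and high Col1a1 CPM were thus found together in this group, and whether the one moves with the other was not tested.

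In the Ptx3 Has1 Prg4 fibroblasts, 1 of 9 genes was 2-fold or more higher, Mfap5 (background 6.73%), and 2 were 2-fold or more lower, Mfap2 and Fbln5 (background 10.3%). The medians were 0.18 over the 9 genes and -0.027 over all genes. Mfap5 stood at 622 CPM (591 to 653), with 1306 and 461 CPM by library, and its log2 ratio was 2.52 (2.41 to 2.63), with 4.15 and 1.49 within suffix 1 and suffix 2. Fbn1 at 696 CPM, Fbln2 at 607 CPM and Fbln1 at 340.0 CPM had log2 ratios of 0.80, 0.85 and 0.78. All 3 passed 2-fold within suffix 1, where the group had 40 cells, and did not within suffix 2. The group's make-up differs between the libraries. The Pi16-led sub-cluster described below gave 19 of its 40 suffix 1 cells and 16 of its 179 suffix 2 cells. The part of this in the library differences, that of Mfap5 included, was not tested. Mfap2 was lower at -1.43 (-1.61 to -1.26), in both libraries. Both lower calls were lost with finer clusters at resolution 2, at resolution 1 for the fibroblasts alone (tried after seeing the data) and with classes from marker scores per cell, where the Mfap2 ratio was -0.86, -0.86 and -0.52. Fbln5 was lower at -1.13 (-1.46 to -0.82) in the sum but not within suffix 1, where its ratio was 0.35.

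The group held a sub-cluster of 35 cells led by Smpd3, Sfrp2 and Pi16 that stood apart from the rest. Pi16 marks a fibroblast state found around vessels and in the fascia of many organs. In these cells Fbn1 was at 1635 CPM (1513 to 1763) and Mfap5 at 1378 CPM (1267 to 1497), each the highest level of that gene in any sub-cluster. By library, Fbn1 was at 2073 and 1029.5 CPM and Mfap5 at 1749 and 867 CPM, so both were high in each. All 35 cells had a Fbn1 UMI before thinning, and 97.1% had one of Mfap5. The same cells had no UMI of Mfap4 and none of Fbn2, where 3 counts would be 7.33 CPM, and Emilin1 at 7.33 CPM (1.51 to 21.4). The Ptx3 Has1-led majority, 184 cells, had Mfap5 at 474 CPM, Fbn1 at 513 CPM and Mfap4 at 301 CPM.

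In the Inmt Gdf10 C3 fibroblasts, 5 of 9 genes were 2-fold or more lower (background 14.1%), Eln, Fbn1, Fbln5, Mfap2 and Mfap4, and 1 was 2-fold or more higher, Fbln1 (background 4.86%). The medians were -1.07 over the 9 genes and -0.15 over all genes. Mfap4 had 3 UMIs in 113 cells, 3.81 CPM (0.786 to 11.1), a log2 ratio of -6.49 (-8.77 to -4.95). Eln was at 50.8 CPM (36.3 to 69.2), with 87.8 and 36.8 CPM by library, a log2 ratio of -2.17 (-2.66 to -1.72). Fbln1 at 458 CPM (411 to 507) was the highest of the 4 groups, with a log2 ratio of 1.12 (0.96 to 1.28), and 2.02 and 0.51 within suffix 1 and suffix 2, so without suffix 1 it was not past 2-fold. Fbn1, at -1.07 (-1.29 to -0.85), turned to 0.67 with a looser filter on cells and to 0.35 with coarser clusters, under which the group held 335 and 361 cells. Mfap5 at 240.2 CPM was near the mean of the other fibroblasts. These cells were the shallowest fibroblasts, with a median of 5318 UMIs, and they carried adipocyte genes, Car3 at 1092 CPM and Adipoq at 89.0 CPM. The part of these in the result was not tested.

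In the Prlr Crabp1 fibroblasts, none of 10 genes was 2-fold or more higher (background 24.8%) and 7 were 2-fold or more lower (background 12.5%): Eln, Fbn1, Fbln1, Fbln2, Mfap2, Mfap4 and Mfap5. The medians were -1.71 over the 10 genes and 0.34 over all genes. Mfap5 was the most reduced, at 8.70 CPM (5.83 to 12.5), a log2 ratio of -4.95 (-5.53 to -4.42). Eln at 30 CPM (24.4 to 36.5) had -3.23 (-3.53 to -2.94) and Fbn1 at 82.8 CPM (73.3 to 93.2) had -2.80 (-2.98 to -2.63), and these 3 genes were lower in each library. Within suffix 2, with 29 cells, 4 of the 7 stayed past 2-fold, and the Mfap4 ratio was -2.59 and -0.02 in suffix 1 and suffix 2. Without the cells that held 5 or more macrophage marker UMIs, 62 remained, 4 genes were lower and Mfap2 turned to a log2 ratio of 0.19. Fbn2, Fbln5 and Emilin1 had log2 ratios of -0.20, -1.0 and -0.41. The group was low in fibroblast markers in general. Its 9 fibroblast markers summed to 3978 CPM against 83714 CPM in all fibroblasts, and Col1a1 was at 889 CPM. Per 1000 Col1a1 UMIs it had 33.7 Eln, 158 Mfap2 and 93.1 Fbn1 UMIs, above the 7.27, 9.17 and 15.1 of all fibroblasts, so a ratio to collagen gives the opposite order to a ratio to all UMIs.

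Among fibroblasts outside the 4 groups, the 86 cells led by Cthrc1, a secreted protein of collagen-producing and wound fibroblasts, had Fbn1 at 888 CPM (841 to 937) and Mfap2 at 463 CPM (429.9 to 499). Fbn2 was at 28.2 CPM (20.4 to 38.0), its highest level, with all 43 UMIs from suffix 1, which gave 72 of the 86 cells. Fbln5 was at 17.7 CPM (11.7 to 25.8), its lowest level in fibroblasts. Col1a1 reached 86758 CPM in these cells.

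In the vessel wall, smooth muscle-like and pericyte-like cells were separated by their markers, Acta2 at 7219.5 against 319.7 CPM and Kcnj8 at 9.88 against 528 CPM. Of 5 genes that passed the filter, 2 were 2-fold or more higher in the 33 smooth muscle-like cells (background 12.7%), Fbln5 and Eln, and none was lower (background 19.5%). Fbln5 was at 170.4 CPM (133 to 216) against 19.8 CPM (8.56 to 39.1), a log2 ratio of 3.1 (2.04 to 4.37), and it was higher in both libraries. Eln was at 71.6 CPM (48.0 to 103) against 19.8 CPM (8.56 to 39.1), a log2 ratio of 1.85 (0.69 to 3.19) that rested on 29 and 8 UMIs. Within suffix 1 its log2 ratio was 0.76, short of 2-fold. Fbln2 was at 128 and 159 CPM, and Emilin1 at 69.1 CPM (45.9 to 99.9) and 42.1 CPM (24.5 to 67.5). The Fbln2 and Emilin1 intervals overlapped between these classes.

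Blood and lymphatic endothelium differed in 3 of 5 genes by 2-fold or more, Fbln2 to the blood side (background 11.7%) and Fbln5 and Emilin1 to the lymphatic side (background 11.1%). Fbln2 stood at 197 CPM (181 to 214) in 261 blood and 47.0 CPM (33.8 to 63.8) in 55 lymphatic endothelial cells, with 236 and 165 against 43.4 and 53.3 CPM by library. Fbln5 stood at 275 CPM (242 to 313) in lymphatic and 121 CPM (109 to 135) in blood endothelium, with 268 and 288 against 105 and 134 CPM by library. Both differences were thus seen in each library. Emilin1, which is known for anchoring lymphatic vessels to the matrix, was at 32.1 CPM (21.3 to 46.4) in lymphatic and 9.94 CPM (6.61 to 14.4) in blood endothelium. Eln did not differ beyond its intervals, at 59.7 and 42.6 CPM.

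Among the 4 blood endothelial sub-clusters, the 34 cells led by Selp, Plvap and Sele, adhesion genes of venules, had the highest Fbln2, 309 CPM (268 to 354), and the highest Fbn1, 93.0 CPM (71.3 to 119). The 94 cells led by Gpihbp1, Rbp7 and Timp4, capillary genes, had Fbln5 at 219 CPM (188 to 253) and Fbn1 at 16.8 CPM (9.16 to 28.1). A further 54 cells led by Plvap, Pecam1 and Emcn had Fbln5 at 46.7 CPM (31.1 to 67.5). Fbln5 thus varied within blood endothelium by more than its counting error.

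Mural and endothelial cells as wholes did not differ in Eln, Fbln2 and Fbn1 beyond their counting intervals over both libraries, though within suffix 2 the log2 ratios of mural over endothelial cells were -1.57 for Fbn1 and -1.0 for Fbln2. Of the 5 genes that passed, only Emilin1 was 2-fold or more higher in mural cells (background 11.6%) and none lower (background 9.47%). Its log2 ratio was 1.87 (1.27 to 2.47), with 1.99 and 1.57 by library. With the smooth muscle-like cells in place of all mural cells it was 2.19, Fbn1 was lower at -1.04, and the Fbln5 ratio turned to 0.11. The medians were -0.17 over the 5 genes and 0.00046 over all genes. Over all mural cells the Fbln5 ratio was -0.73 (-1.09 to -0.38). The pericyte-like cells also carried endothelial markers, whose 10 genes summed to 4763 CPM there against 1229.6 in smooth muscle-like and 8313 CPM in blood endothelial cells, and their part in these levels was not tested.

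Schwann cells are the glia of peripheral nerves, and Mfap5 was not spread evenly over them. It was at 527 CPM (447 to 617) in 44 cells led by genes that include the myelin genes Mbp and Mal, with 551 and 504 CPM in suffix 1 and suffix 2. In 22 cells led by Sfrp5, Ucn2 and Itgb4 it was at 756 CPM (654 to 870.5), with 855 and 571 CPM. In 48 cells with Kcna1 and Gfra3 among their leading genes it was at 13.8 CPM (2.84 to 40.2), with 3 UMIs and 13.8 and 13.8 CPM by library. Myelin-led cells were thus high in both libraries and the Gfra3-led cells low in both. After thinning, 50% of the myelin-led, 68.2% of the Sfrp5-led and 5.26% of the Gfra3-led cells had a UMI of Mfap5.

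Fibroblast markers differed between these sub-clusters as well. In the Sfrp5-led cells Dcn, a proteoglycan gene of fibroblasts, was at 9000.3 CPM (8638 to 9374), the 9 fibroblast markers summed to 12919 CPM with 8 of 9 detected, and Fbn1, Fbln1 and Mfap4 were at 116, 62.1 and 34.9 CPM. In the myelin-led cells Dcn was at 44.5 CPM (23.7 to 76.0), the markers summed to 1474 CPM with 6 of 9 detected and Pdgfra, Dpt and Col6a1 at 0, and no UMI of Eln, Fbln1, Mfap2 or Mfap4 was found. The part of fibroblast RNA in the Mfap5 of Schwann cells was not tested. Split the other way, the 52 Schwann cells with 5 or fewer fibroblast marker UMIs had Mfap5 at 97.3 CPM (56.7 to 156), with 148 and 85.2 CPM by library, and the 74 with more had 481 CPM (432 to 535). Of 5 genes that passed the filter, Mfap5 and Fbn1 were 2-fold or more lower in the first set (background 13.3%) and none higher (background 11.2%). The split also divides shallow from deep cells, with median depths of 3152 and 7717.5 UMIs, and Mfap5 was 4.95-fold higher in the latter.

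**Figure D4:**
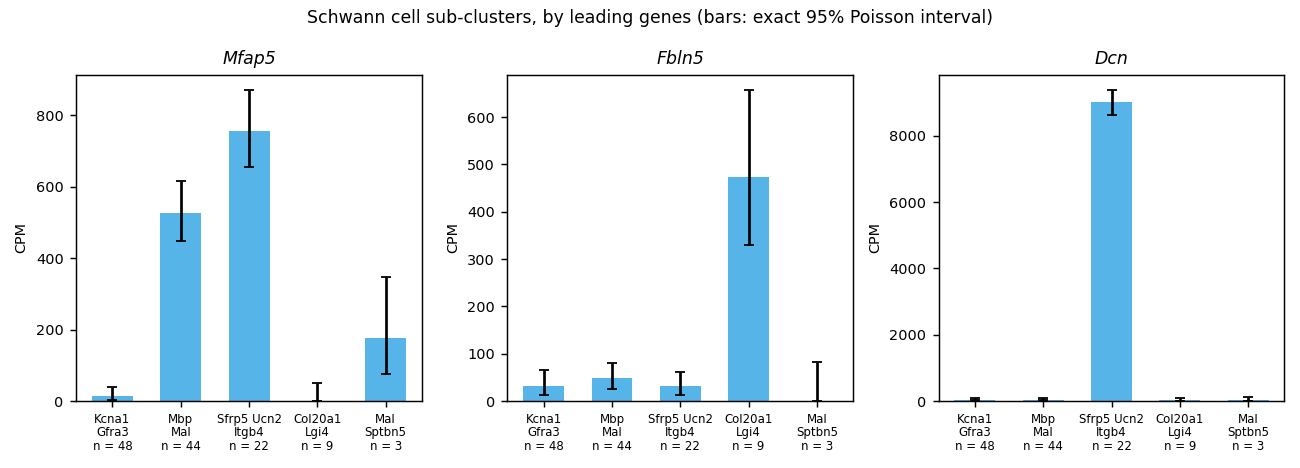
Mfap5, Fbln5 and, for comparison, the fibroblast gene Dcn in 5 Schwann cell sub-clusters named by genes among their leading ones, with the number of cells. Bars are CPM over both libraries with exact 95% Poisson intervals. Mfap5 is high in the myelin-led and the Sfrp5-led cells, Dcn is high in the Sfrp5-led cells alone, and Fbln5 is highest in the 9 Col20a1-led cells.

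Fbln5 in Schwann cells had another distribution. A sub-cluster of 9 cells led by Col20a1 and Lgi4, genes of terminal or non-myelinating Schwann cells, had 472 CPM (329 to 657), with 549 and 436 CPM by library, against 47.9 CPM (26.2 to 80.4) in the myelin-led cells. The 9 cells also had 175 CPM (93.4 to 300.0) of Fbln2, no UMI of Mfap5 and macrophage markers summing to 7976 CPM. The part of those markers in the Fbln5 level was not tested. Over all Schwann cells, the fibrillin-binding and fibulin genes were found with no UMI of Eln. The 9 cells held 74098 of the 887331 Schwann UMIs, so a count of 0 limits Eln less there than over the class. No absence of Eln is read for single sub-clusters.

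Keratinocytes, the cells of the epidermis, had Fbln1 at 42.2 CPM (34.8 to 50.6) and Mfap2 at 29.0 CPM (22.9 to 36.1), with 29.3 and 63.9 CPM of Fbln1 and 28.1 and 30.5 CPM of Mfap2 in suffix 1 and suffix 2. Their other 8 genes were at 8.44 CPM or less. Fbn1 at 1.10 CPM and the 9 fibroblast markers at a sum of 199 CPM were near the levels in macrophage and dendritic cells, 1.77 and 333 CPM, where Fbln1 was at 0.353 and Mfap2 at 1.10 CPM. Thinned to 2000 UMIs, 4.11% (0.856% to 11.5%) of keratinocytes had a UMI of Fbln1 and none had one of Mfap2. Thinned to 5000 UMIs, 13.6% of the 59 deep enough had one of each. The 115 Fbln1 UMIs came from 16 keratinocytes and the 79 Mfap2 UMIs from 13.

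Of 38 genes for the assembly, crosslinking, binding and breakdown of elastic fibres, all found in the table, 19 reached 100 CPM in fibroblasts, one of their groups, mural, endothelial or Schwann cells. Against mural cells, 18 of the 27 that passed the level filter were 2-fold or more higher in fibroblasts and 3 lower. Against endothelial cells the counts were 18 higher and 6 lower of 29, and against Schwann cells 15 higher and 3 lower of 28. Against keratinocytes they were 23 higher and none lower of 25, and against macrophage and dendritic cells 21 higher and 6 lower of 28. Of the fibroblast groups, the Igfbp2 Grem1 Cyp26b1 group had 7 higher and 3 lower of 28, the Ptx3 Has1 Prg4 group 6 and 6 of 28, the Inmt Gdf10 C3 group 2 and 10 of 26, and the Prlr Crabp1 group 3 and 17 of 28. Within the mural cells, 7 of 20 were higher in smooth muscle-like than in pericyte-like cells, Lox, Loxl1 and Efemp2 among them. Another 4 were lower, Mmrn2 and Timp4 among them. The backgrounds are those given with the 10 genes for the same comparisons.

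The crosslinking enzymes Lox, Loxl1 and Loxl2 were highest in fibroblasts among the main classes. Lox, lysyl oxidase, was at 397 CPM (386 to 408) in fibroblasts, 24.7 CPM (15.1 to 38.2) in mural and 1.08 CPM (0.296 to 2.78) in endothelial cells. Loxl1, the oxidase most tied to elastin upkeep, was at 189 CPM (181 to 196), 19.8 CPM (11.3 to 32.1) and 0.271 CPM, and Loxl2 at 180.4 CPM (173 to 188), 53.2 CPM (38.5 to 71.6) and 14.9 CPM (11.2 to 19.4). Endothelium thus had Eln and Fbln5 with almost no Lox or Loxl1. Fkbp10, a collagen and tropoelastin chaperone, was at 167 CPM in the Igfbp2 Grem1 Cyp26b1 fibroblasts and 18.6 CPM in the Prlr Crabp1 fibroblasts.

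Of the fibulin relatives, Efemp1 (fibulin-3) was at 345 CPM (335 to 355) in fibroblasts and had no UMI in mural cells, while Efemp2 (fibulin-4), which binds lysyl oxidase, was at 72.9 CPM (68.5 to 77.7) and 50.7 CPM (36.4 to 68.8). Latent TGF-beta binding proteins tie microfibrils to TGF-beta. Ltbp4, which works with Fbln5 in elastin assembly, was at 1030.4 CPM (964 to 1100.0) in lymphatic endothelium, 464 CPM (439 to 489.5) in blood endothelium and 182 CPM (174 to 189) in fibroblasts. Of the classes described, lymphatic endothelium was the highest in both Ltbp4 and Fbln5, though among sub-clusters the 9 Col20a1-led Schwann cells were higher in Fbln5. Ltbp1 was at 154 CPM (148 to 161) in fibroblasts and 97.7 CPM (77.4 to 122) in mural cells, with 203 CPM in the Prlr Crabp1 fibroblasts.

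Relatives of Emilin1 were divided by cell class. Mmrn1, the lymphatic marker multimerin-1, was at 2533 CPM in lymphatic endothelium. Mmrn2 was at 352 CPM (331 to 375) in blood endothelium, 118 CPM (96.5 to 143) in lymphatic endothelium and 147 CPM (122 to 176) in mural cells, with 1.11 CPM in fibroblasts. Among mural cells it was higher in the pericyte-like cells, which also carried endothelial markers. The part of those in the mural level was not tested. Emilin2 was at 218 CPM (212 to 223) in macrophage and dendritic cells and 82.0 CPM (77.2 to 87.0) in fibroblasts. Emilin2 was thus the one relative led by macrophages.

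**Figure D5:**
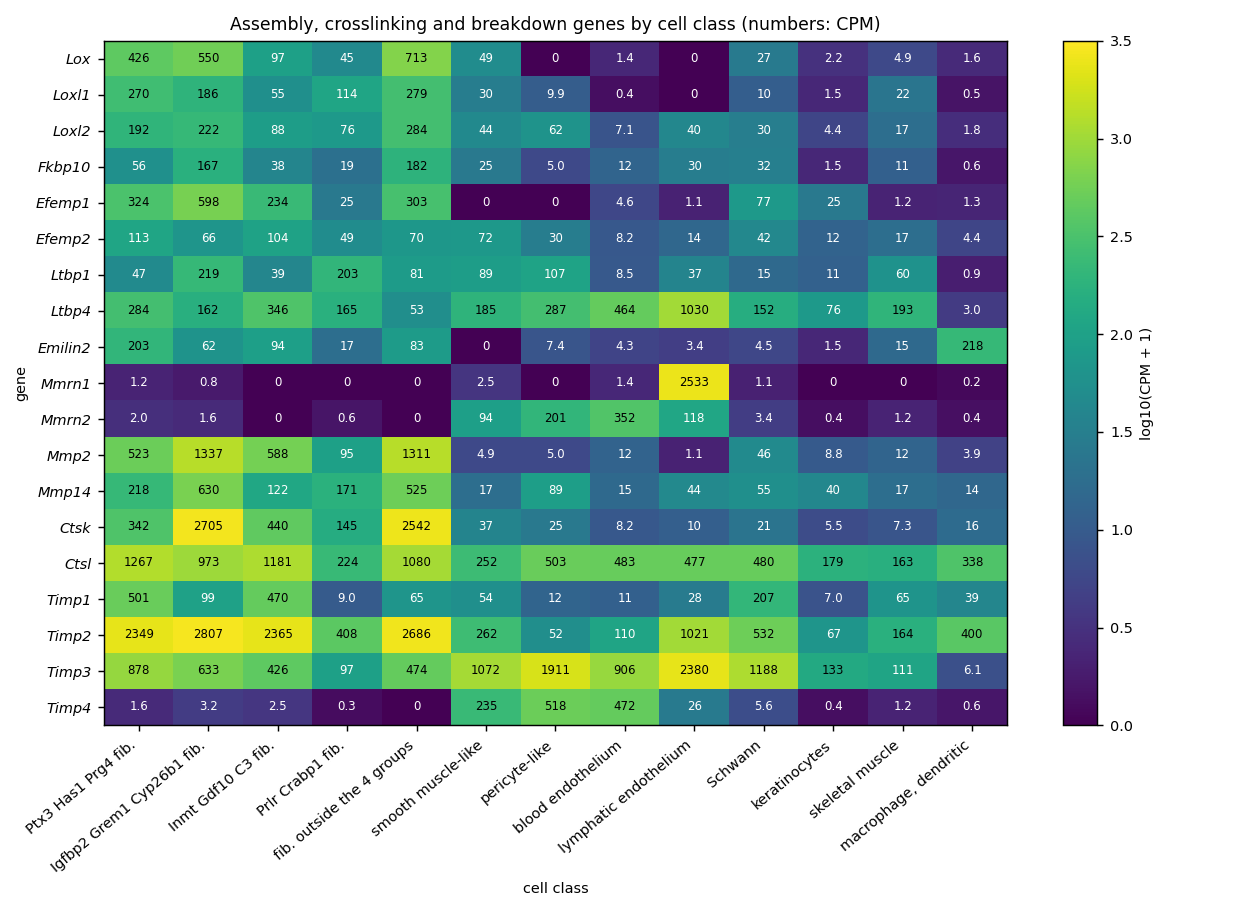
Level of 19 genes for crosslinking, assembly, breakdown and its inhibition (rows) in each cell class (columns), both libraries summed. Colour is log10(CPM + 1) and the number is the CPM. Lox, Loxl1, Mmp2 and Ctsk are confined to the fibroblast columns among classes at 100 CPM or more, among the classes drawn Ltbp4 and Timp3 peak in lymphatic endothelium, and Emilin2 is shared by fibroblasts and macrophages.

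Proteases that can cut elastic fibres were also placed apart. Mmp2, gelatinase A, was at 831 CPM (816 to 847) and Mmp14, its membrane-bound activator, at 396 CPM (386 to 407) in fibroblasts, and Ctsk, cathepsin K, at 1478 CPM (1457 to 1498). Ctsk reached 2705 CPM in the Igfbp2 Grem1 Cyp26b1 fibroblasts, the group with the highest Eln. The elastolytic genes of macrophages, Ctss (cathepsin S), Mmp12 (macrophage elastase) and Mmp9 (gelatinase B), were at 1325 CPM (1311 to 1339), 116 CPM (112 to 119.9) and 50.2 CPM (47.5 to 53.1) in macrophage and dendritic cells, against 15.6, 1.86 and 0.520 CPM in fibroblasts. Those 3 are named for that contrast after their values were seen. Ctsl, cathepsin L, was found in every class, at 868 CPM in fibroblasts and 338 CPM in macrophage and dendritic cells.

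The inhibitors of these proteases differed between classes as well. Timp2 was at 2086 CPM (2062 to 2111) in fibroblasts and 325 CPM (307 to 344) in endothelial cells. Timp3, the inhibitor bound to matrix, was at 1490.3 CPM (1407 to 1577) in mural cells, 1255 CPM (1219 to 1291) in endothelial cells, 1188 CPM (1117 to 1262) in Schwann cells and 513 CPM (501 to 525) in fibroblasts. Timp4 was at 518 CPM (450.1 to 593) in pericyte-like and 472 CPM (447 to 498) in blood endothelial cells and at 1.71 CPM in fibroblasts. Timp1 was highest in the Ptx3 Has1 Prg4 fibroblasts, at 501 CPM (474 to 530.0), and the Inmt Gdf10 C3 fibroblasts, at 470.2 CPM (424 to 521). Mural, endothelial and Schwann cells were thus higher in Timp3, pericyte-like and blood endothelial cells in Timp4, and fibroblasts in Timp2. The pericyte-like cells also carried endothelial markers, at 4763 CPM against 8313 CPM in blood endothelial cells. The part of this in their Timp4 was not tested.

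Over 26 clusters of all cells, the genes most like each of the 10 in log2(CPM + 10), among 7561 that reached 50 CPM in a cluster, were found by Pearson correlation. Fbn1 was closest to Fstl1 and Serping1 (r = 0.98 and 0.97), Fbln1 to Thbs2 and Smoc2 (0.95 and 0.95), Mfap2 to Podn and Igsf10 (0.97 and 0.96), and Mfap5 to Ogn and Igfbp6 (0.96 and 0.96). Eln was closest to Pard3b and Ecm2 (0.93 and 0.90), Mfap4 to Scarf2 and C1qtnf2 (0.95 and 0.94), Fbn2 to Tnmd and Itgbl1 (0.94 and 0.90), and Fbln2 to Plpp3 and Serpinh1 (0.96 and 0.94). Fbln5 was closest to Akap12 and Lysmd2 (0.93 and 0.93), and Emilin1 had the weakest best match, Bgn (0.87). Clusters share their libraries and most are not fibroblasts, and the values are a description.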

How the data were processed

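Per the labels, dorsal skin of 2 pooled mice for each age was digested, sorted and run as droplet 3′ libraries. The authors deposited a table of raw UMI counts per gene and barcode, made with Cell Ranger 4.0.0 on mm10 and not normalized, with both libraries in 1 table. The sources used here give neither the sample behind each barcode suffix nor the gene annotation. Cells with at least 500 genes, 1000 UMIs and at most 10% mitochondrial UMIs were kept, 2396 of suffix 1 and 1401 of suffix 2. The libraries shared 1 barcode, which was not kept. Scrublet called 6 doublets, which were counted and not removed.

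Cells were clustered in scanpy 1.11.5 with leidenalg 0.10.2 (Python 3.11.15) on 2000 variable genes, without the 10 genes and the 38 related genes, using 30 principal components, 15 neighbours and resolution 1. Fibroblasts were divided further at resolution 0.5 and vascular cells at 1. Clusters were named from marker lists by the mean log2 excess of the markers over the median cluster. A fibroblast or vascular sub-cluster led by less than 2 was set aside as mixed unless it was the highest in its own list. Schwann sub-clusters were not screened by this rule. The naming rule and both finer resolutions were set after the clusters were seen. UMIs were summed per class, with exact Poisson intervals for CPM, exact conditional intervals for ratios and Clopper-Pearson intervals for shares (scipy 1.17.1), all at 95%. Ratios were counted at 2-fold among genes averaging 10 CPM or more in the classes compared, and a count of 0 was set at 3 counts for bounds. The ratio intervals were tested only on simulated Poisson sums, the counting model they assume. That test does not cover UMIs concentrated in a few cells. No p-value was computed, because the cells of 1 library are not replicates.

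Named genes were the 10, related genes at 100 CPM or more in a described class, and the 2 genes most like each of the 10, of which 1 is not reported here, nor are some leading genes of sub-clusters. Members and lists were chosen with earlier results of these data known. Gene positions are from GENCODE vM21 and upstream sequences from RefSeq, both GRCm38. Alternatives were another cell filter, resolution, number of variable genes, clustering with the 10 genes, single libraries, a mean over cells, mixed cells left out, classes from marker scores per cell, the mural class without pericyte-like cells, and thinning to 5000 UMIs.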

Additional observations from a re-analysis of the deposited data

Results flagged for a closer look

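The barcodes that the filter removed still held elastic fibre RNA, a signal outside the main measurement. Over 1460 removed barcodes the 10 genes summed to 1633 UMIs, or 302.2 CPM (exact Poisson interval 288 to 317), where a count of 0 would allow 0.555 CPM. In the kept cells the same sum was 2203 CPM in fibroblasts, 607 in Schwann, 424 in endothelial, 375 in mural and 13.2 CPM in macrophage and dendritic cells. The mitochondrial limit was exceeded by 1149 barcodes, and the cell classes of the removed barcodes were not tested. Of the removed UMIs, 298 were of Mfap5, 295 of Fbln2 and 232 of Eln. Groups of cells are not replicate samples, so no test for samples far from the others could be made.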

How the results depend on the processing

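Of 236 values of the counts of genes 2-fold or more higher or lower under an alternative, 196 stayed within 1.5 times the value reported and 40 did not. Between classes, the counts of genes higher in fibroblasts, or in mural over endothelial cells, stayed so under every alternative that gave a value, and the counts lower did not. The 0 lower in fibroblasts than in mural cells became 2 at resolution 0.5, 1 in suffix 1 alone and 2 without the pericyte-like cells, an alternative chosen after seeing the data. The 1 lower than in endothelial cells became 0 with the stricter filter, in suffix 2 alone, with mixed cells left out and with scores per cell. The 0 lower than in Schwann cells became 1 with the looser filter and in suffix 1 alone. The 0 lower in mural than in endothelial cells became 2 with the looser filter and in suffix 2 alone, and 1 at resolution 0.5, as a mean over cells, with mixed cells left out and without the pericyte-like cells. For the Ptx3 Has1 Prg4 group, the 1 gene higher became 2 at resolution 0.5, 4 in suffix 1 alone and 2 with classes from marker scores per cell. Its 2 genes lower became 4 with the stricter filter, 5 at resolution 0.5, 0 at resolution 2, 1 in suffix 1 alone, 0 with scores per cell and 0 at resolution 1 for the fibroblasts, an alternative chosen after seeing the data. The 1 gene lower in the Igfbp2 Grem1 Cyp26b1 group became 0 at resolution 2, 2 in suffix 1 alone and 0 at resolution 1 for the fibroblasts. For the Inmt Gdf10 C3 group, the 1 gene higher became 0 with the stricter filter, 2 with the looser filter, 2 at resolution 0.5, 0 in suffix 2 alone, 0 as a mean over cells and 0 with mixed cells left out, and the 5 lower became 1 with the looser filter, 2 at resolution 0.5 and 3 with scores per cell. For the Prlr Crabp1 group, the count of 0 higher became 1 with mixed cells left out, and the 7 lower became 4 in suffix 2 alone, 4 as a mean over cells and 4 with mixed cells left out. At resolution 0.5 the Ptx3 Has1 Prg4 group held 17 cells, and the Inmt Gdf10 C3 group held 335 cells with the looser filter. Otherwise the cause was not tested.

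Of 1165 log2 ratios under an alternative, 6 that were 2-fold or more as reported changed sign. They included Fbn2 in fibroblasts over Schwann cells (-0.038 with the stricter filter), which had not passed the level filter and was not counted. The others were Fbln5 in the Ptx3 Has1 Prg4 group (0.35 in suffix 1 alone), Fbn1 in the Inmt Gdf10 C3 group (0.67 with the looser filter, 0.35 at resolution 0.5 and 0.38 with scores per cell) and Mfap2 in the Prlr Crabp1 group (0.19 with mixed cells left out). Of 1180 CPM levels, 364 moved beyond their counting interval, and of 100 shares at 5000 UMIs, 58 did. The stricter filter gave no mural class and no Prlr Crabp1 group, and the looser filter gave no Ptx3 Has1 Prg4 group. No paired analysis was possible because each age has 1 library and no label ties a library to an age. Depth limits low genes most: Fbn2 had 154 UMIs in all kept cells.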
